A study of Homo sapiens with 2 samples.

Results

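The aminoacyl-tRNA synthetase genes are 36 protein-coding genes, given by name, out of 19819 protein-coding genes on chromosomes 1 to 22 and X. Of these, 17 have names that end in 1 and encode cytosolic enzymes, and 16 have names that end in 2 and encode mitochondrial enzymes. FARSA and FARSB, which encode the alpha and beta subunits of the cytosolic phenylalanine enzyme, and TARS3, a further threonine enzyme gene, carry neither ending and were counted apart. Binding of ING5 was mapped by ChIP-seq in 1 library from untreated HepG2 cells, an established human liver cancer line, made with an antibody against ING5. The other group is 1 input DNA library without antibody from the same untreated line, which enters only as the control inside the peak calls. The headers give 12416160 ChIP fragments and 9915170 input fragments. A gene was called bound when the summit of an ING5 peak lay within 1000 bp of any of its annotated transcription start sites (TSSs). With 1 library there is no replicate error, and no difference was tested. Poisson intervals of pileups cover counting error only. Binomial intervals treat the listed genes as independent draws, although HARS1 and HARS2 share 1 peak, and do not measure error of the library.

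Aminoacyl-tRNA synthetases attach each amino acid to its transfer RNA, the step that supplies ribosomes with charged tRNA. Cytosolic and mitochondrial translation mostly use separate enzymes, both encoded in the nucleus, while GARS1 and KARS1 each encode the enzyme of both compartments. QARS1 has no mitochondrial counterpart, since mitochondria make glutamine tRNA by amidation. Several cytosolic synthetase genes are targets of ATF4, the transcription factor of the amino acid response. ING5 binds methylated histone H3 through its PHD finger and belongs to histone acetyltransferase complexes.

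The starts at which ING5 was highest are shown first, with the shared start of the histidine enzyme genes HARS1 and HARS2. Each sequence runs from 250 bases before to 50 bases after a RefSeq start (GRCh38.p14), 5′ to 3′ on the gene's strand, and capitals mark the bases inside an ING5 peak of that gene. TARS1 and GARS1 had the highest pileup among cytosolic genes, at chr5:33440715-33441014 (plus strand) and chr7:30594628-30594927 (plus strand). NARS2 and MARS2 had the highest among mitochondrial genes, at chr11:78574815-78575114 (minus strand) and chr2:197705119-197705418 (plus strand). The HARS1 sequence lies at chr5:140691321-140691620 (minus strand).
TARS1: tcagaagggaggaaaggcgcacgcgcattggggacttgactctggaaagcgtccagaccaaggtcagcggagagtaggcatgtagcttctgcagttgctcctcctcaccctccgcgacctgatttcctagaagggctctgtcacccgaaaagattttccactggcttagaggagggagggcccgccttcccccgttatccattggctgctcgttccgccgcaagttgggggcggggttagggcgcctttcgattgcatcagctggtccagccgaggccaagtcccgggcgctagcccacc
GARS1: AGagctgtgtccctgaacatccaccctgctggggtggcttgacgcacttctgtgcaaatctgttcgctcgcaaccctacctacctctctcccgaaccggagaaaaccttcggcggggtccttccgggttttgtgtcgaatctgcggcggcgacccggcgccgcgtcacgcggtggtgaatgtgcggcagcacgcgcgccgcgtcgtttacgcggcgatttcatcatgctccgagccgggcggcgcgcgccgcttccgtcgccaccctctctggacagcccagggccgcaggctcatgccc
NARS2: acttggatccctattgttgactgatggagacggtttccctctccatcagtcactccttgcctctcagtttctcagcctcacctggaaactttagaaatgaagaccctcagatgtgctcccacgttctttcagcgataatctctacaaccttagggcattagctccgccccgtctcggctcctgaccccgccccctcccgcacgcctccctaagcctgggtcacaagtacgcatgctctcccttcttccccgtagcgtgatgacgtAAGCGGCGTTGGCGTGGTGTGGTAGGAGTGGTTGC
MARS2: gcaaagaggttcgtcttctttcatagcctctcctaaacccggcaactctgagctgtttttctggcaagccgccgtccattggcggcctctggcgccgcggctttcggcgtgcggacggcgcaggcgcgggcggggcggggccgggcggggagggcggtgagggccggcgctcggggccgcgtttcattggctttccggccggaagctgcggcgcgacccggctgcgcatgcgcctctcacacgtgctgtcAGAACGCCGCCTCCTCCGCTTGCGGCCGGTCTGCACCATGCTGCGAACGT
HARS1: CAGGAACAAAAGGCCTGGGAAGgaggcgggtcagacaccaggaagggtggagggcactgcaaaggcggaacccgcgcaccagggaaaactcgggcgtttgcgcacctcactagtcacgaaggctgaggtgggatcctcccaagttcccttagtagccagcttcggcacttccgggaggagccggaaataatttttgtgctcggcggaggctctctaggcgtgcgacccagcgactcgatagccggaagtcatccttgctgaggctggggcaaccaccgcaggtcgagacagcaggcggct
The TARS1 promoter held no base of a peak, since it lay in the 450 bp between its 2 peaks. The GARS1 promoter held 2 such bases, in a gap of 315 bp between its peaks. In NARS2 and MARS2 the peak took 35 and 50 of the 300 bases, all at the 3′ end. The HARS1 promoter held 22 such bases at its 5′ end, on the HARS2 side. In these 5 promoters the bases just before the start thus lay outside any called peak.

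An ING5 promoter peak was found at 20 of the 36 synthetase genes (55.6%, exact binomial 95% interval 38.1 to 72.1), against 6126 of all 19819 protein-coding genes (30.9%). Among cytosolic enzymes 10 of 17 were bound (58.8%, 32.9 to 81.6), and among mitochondrial enzymes 7 of 16 (43.8%, 19.8 to 70.1). The difference between the compartments was not tested. FARSA, FARSB and TARS3 were all bound and are not in the cytosolic count. Without GARS1, KARS1 and QARS1 the cytosolic count was 7 of 14 (50%). The 20 bound genes rested on 24 distinct peaks.

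The share depended on which peaks were kept. Of the 1000 most significant peaks, those at promoters reached 1 of the 36 genes (2.78%), against 4.79% of all protein-coding genes. The background of 12 of the 20 best peaks was above the lowest, genome-wide value of 0.853 fragments, which left 40.0% at that value, against 61.6% of all bound genes. With peaks at the genome-wide value alone, 8 of 36 synthetase genes were bound (22.2%), against 19.9% of all genes, a value near the background. The part of peak strength and local background in the main count was not tested. Among the 4294 more significant peaks the count was 12 of 36 (33.3%), against 19.3% of all genes.

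**Figure D1:**
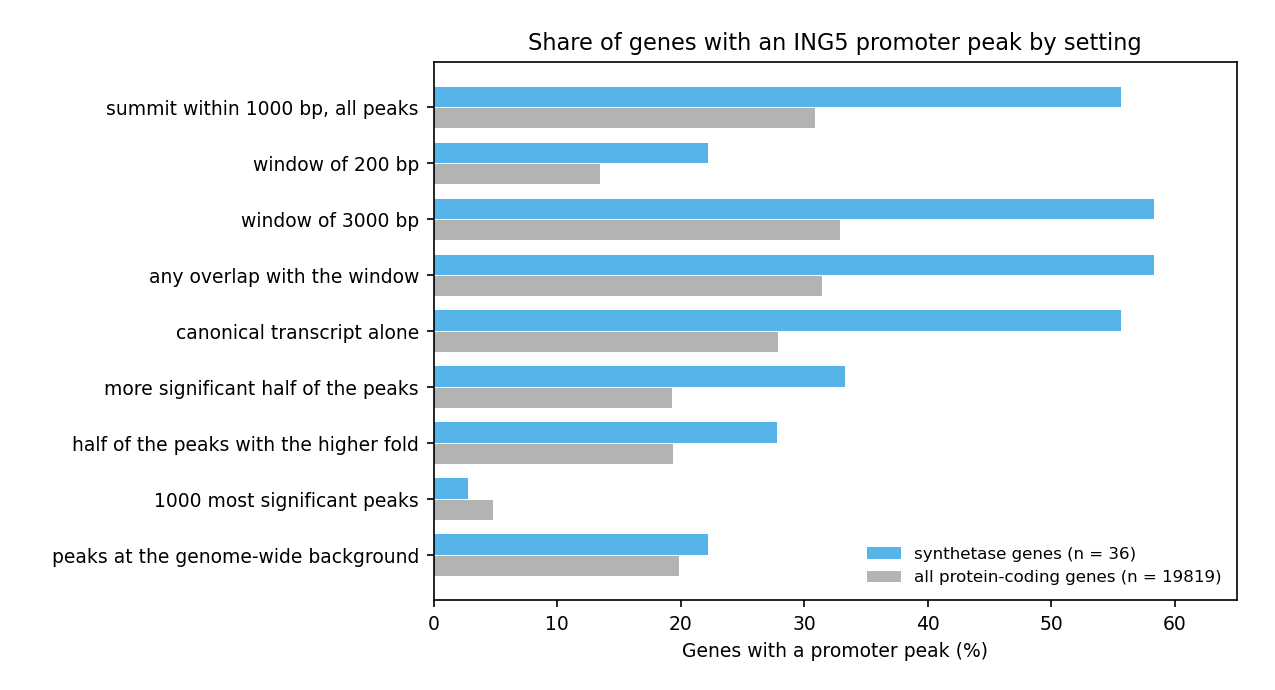
Share of synthetase genes (n = 36, blue bars) and of all protein-coding genes (n = 19819, grey bars) with an ING5 promoter peak, in percent, under 9 ways of choosing peaks or starts. The blue bar is 55.6% against 30.9% in the top row, and it lies near the grey one at 22.2% against 19.9% with peaks at the genome-wide background and below it at 2.78% against 4.79% with the 1000 most significant peaks.

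Peak strength in the family was near that of other bound genes by median pileup, with a smaller share among the 1000 most significant peaks. The median pileup, the number of fragments over the summit of a gene's best peak as the authors' peak caller gave it, was 12.5 over the 20 bound synthetase genes and 13 over all bound genes. The range was 9 to 27 in synthetase genes, against quartiles of 11 and 16 in all bound genes. Cytosolic genes had a median of 13 fragments (range 9 to 21) and mitochondrial genes 15.0 (range 10 to 27). The cytosolic and mitochondrial ranges overlap, and the direction of the difference in medians turned with a window of 200 bp, where the medians were 13 and 10. The median fold enrichment, the authors' ratio of pileup to local background, was 6.45 in bound synthetase genes and 7.01 in all bound genes. The best peak ranked within the 1000 most significant at 1 of 20 bound synthetase genes (5%), against 15.4% of all bound genes. That share rests on 1 gene, and the difference was not tested.

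**Figure D2:**
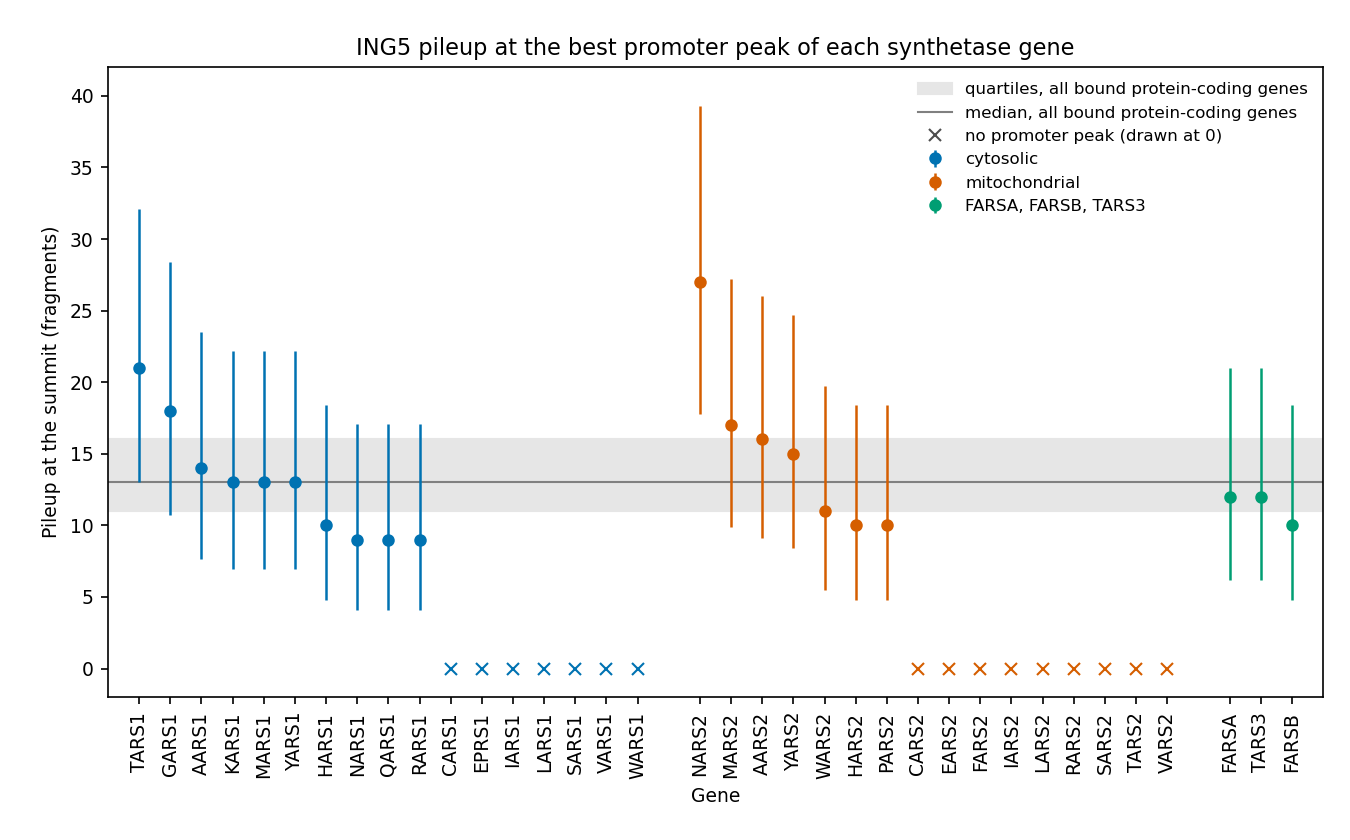
Pileup in fragments at the best promoter peak of each gene, by group, with exact Poisson 95% intervals of the single values as bars; crosses at 0 mark genes without a promoter peak. The line and band give the median (13) and quartiles (11 and 16) of all bound genes, and NARS2, at 27 fragments, stands highest.

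NARS2, the mitochondrial asparagine enzyme, had the strongest peak of the family. It reached 27 fragments (Poisson 95% interval 17.8 to 39.3) and 9.92-fold enrichment, over a local background of 1.82 fragments. Its pileup exceeded that of 96.5% of bound genes, and its rank by significance was 463 of 8608 peaks. The peak covered chr11:78574318-78574849, with its summit in the first exon, 358 bp downstream of the canonical TSS and 12 bp from the nearest annotated one. NARS1, its cytosolic counterpart, had 9 fragments (4.12 to 17.1) and 5.22-fold. Of the 5 amino acid pairs with both genes bound, this was the only pair whose Poisson intervals did not overlap.

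Next among the mitochondrial genes came the methionine, alanine and tyrosine enzymes. MARS2 had 17 fragments and 9.71-fold, with the summit at chr2:197705577, in its first exon and 208 bp downstream of the start. AARS2 had 16 fragments and 9.17-fold, 239 bp downstream, also in the first exon. YARS2 had 15 fragments and 6.84-fold, 262 bp downstream in the first exon, over a background of 1.34. WARS2, the tryptophan enzyme, had 11 fragments and 5.31-fold, at −546 bp from its nearest start. PARS2, the proline enzyme, and HARS2 had 10 fragments each. The Poisson intervals of these 6 genes all overlap, and no order among them was tested.

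TARS1, the cytosolic threonine enzyme, led the cytosolic genes by pileup and had a promoter peak on each side of its start. The downstream peak had 21 fragments (13 to 32.1) and covered chr5:33441028-33441780, with its summit in the first intron, 706 bp from the canonical start. The upstream peak had 17 fragments and its summit at −523 bp from the canonical start. Fold enrichment was 6.25 and 5.34 only, over local backgrounds of 2.52 and 2.37 fragments, the highest among promoter peaks of the family. A further peak of 25 fragments and 3.92-fold, over a background of 5.64 fragments, lay in the first intron at chr5:33442540-33443042, outside the promoter window. It was the only ING5 peak inside any of the 36 genes outside their promoter windows.

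GARS1, the glycine enzyme of both compartments, had 18 fragments (10.7 to 28.4) and 9.30-fold in the first exon, 217 bp downstream of the canonical start. A second GARS1 peak of 12 fragments had its summit at −460 bp from that start. AARS1, the alanine enzyme, had 14 fragments and 6.66-fold in the widest peak of the family, 1700 bp, at chr16:70287723-70289422. KARS1, the lysine enzyme, and MARS1 had 13 fragments and 7.55-fold each, and YARS1 had 13 fragments and 6.22-fold. HARS1 had 10 fragments. NARS1, QARS1 and RARS1, the asparagine, glutamine and arginine enzymes, had 9 each, the lowest values of the family. The Poisson intervals of the 10 bound cytosolic genes all overlap, and no order among these was tested either.

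FARSA and FARSB, whose products form 1 enzyme, had 12 fragments at 7.01-fold and 10 fragments at 5.94-fold. Their summits lay 328 and 344 bp downstream of the nearest start, in the first intron of each gene. TARS3 had 12 fragments and 6.82-fold, 338 bp downstream of its start, and a second peak of 8 fragments and 4.06-fold at an alternative start inside the fifth intron of the canonical transcript.

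Summits lay mainly downstream of the start. This held for 17 of 20 best peaks (85.0%), against 71.5% of all bound genes, measured to the nearest annotated start. The median offset was 224 bp downstream in synthetase genes and 164 bp in all bound genes. It was 214 bp in cytosolic and 103 bp in mitochondrial genes, with ranges of −150 to 567 bp and −546 to 262 bp. In the canonical transcript 6 of the 20 best summits lay in the first exon, 9 in the first intron, 1 in the third exon (QARS1) and 4 upstream (HARS1, KARS1, WARS2 and YARS1). Those of KARS1 and YARS1 lay at −730 and −668 bp from the canonical start, inside the limit of 1000 bp, and nearer to an alternative start.

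**Figure D3:**
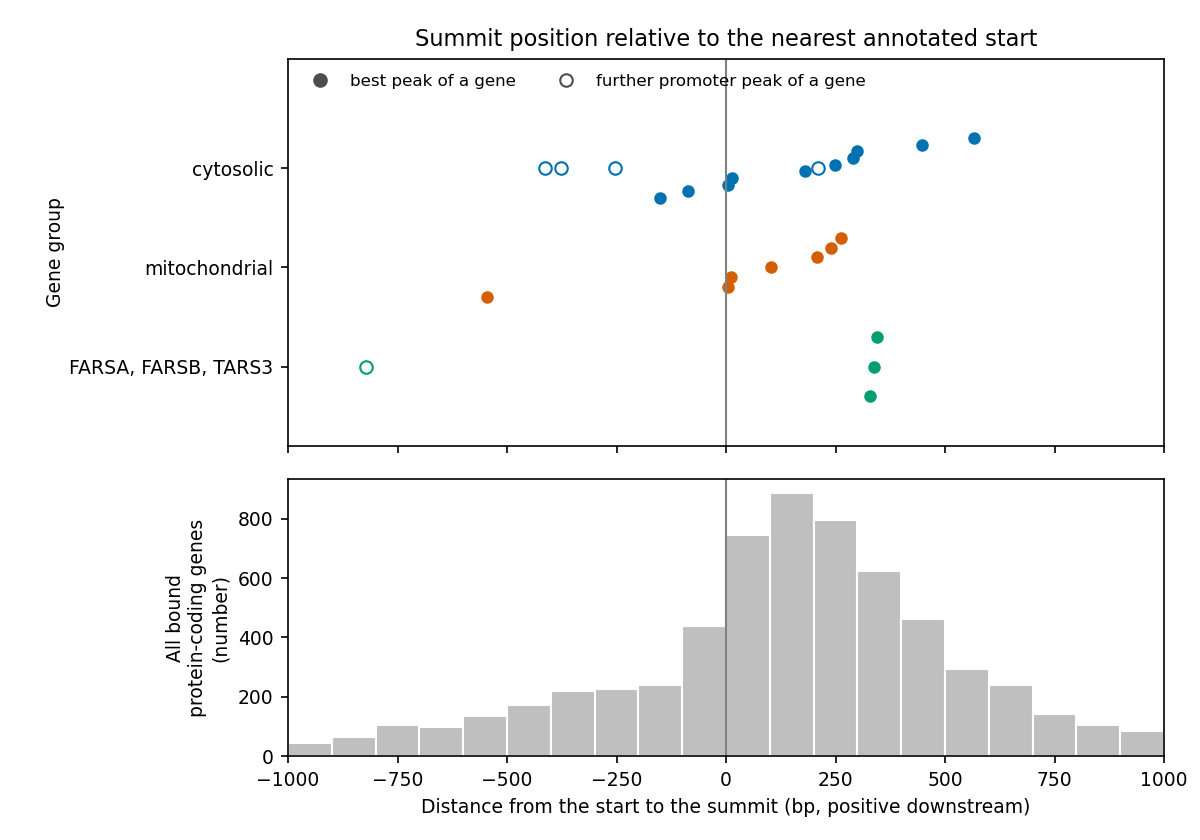
Distance in bp from the nearest annotated start to the ING5 summit, positive downstream, for each synthetase gene (upper part, filled points for best peaks and open points for further ones) and for all bound protein-coding genes (lower part, number of genes per 100 bp). Of the 20 filled points, 17 lie downstream, between 4 and 567 bp.

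More than 1 promoter peak was found at GARS1, KARS1, TARS1, YARS1 and TARS3, which made 5 of 20 bound genes (25%), against 23% of all bound genes. Of these 5, 4 were counted as cytosolic and the other was TARS3, while none of the 7 bound mitochondrial genes had a second peak. However, GARS1 and KARS1 encode the enzyme of both compartments. Without GARS1, KARS1 and QARS1, 2 of 7 bound cytosolic genes had a second peak (28.6%). The difference between compartments was not tested. Both peaks of KARS1 also lay near a start of TERF2IP, and both of YARS1 near a start of S100PBP. For GARS1, TARS1 and YARS1 the 2 summits stood on opposite sides of the canonical start, and for KARS1 both stood upstream of it.

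Some of these peaks belong to starts that synthetase genes share with neighbours. The best peak of 6 of the 20 bound genes (30.0%) also lay within 1000 bp of a TSS of another protein-coding gene, against 31.4% of all bound genes. HARS1 and HARS2 have divergent canonical starts 85 bp apart and share 1 peak of 10 fragments and 4.88-fold at chr5:140691599-140691820. Its summit was at −317 bp from the canonical start of HARS1 and at 232 bp from that of HARS2, in the first exon of the mitochondrial gene. AARS1 shared its peak with DDX19B, KARS1 with TERF2IP, MARS1 with ARHGAP9 and YARS1 with S100PBP. Counting fragments at a summit cannot assign such a peak to either gene. Without them 14 of the 36 genes were bound, 5 cytosolic, 6 mitochondrial and 3 with neither ending. This was 38.9% of the synthetase genes, against 21.2% of all protein-coding genes on the same rule.

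Cytosolic and mitochondrial enzymes for the same amino acid were compared next. Pairs were formed by name, from genes whose names differ only in the final digit, which gave 13 pairs. Both genes were bound in 5 of these pairs (alanine, histidine, methionine, asparagine and tyrosine). Neither was bound in 5 (cysteine, isoleucine, leucine, serine and valine). In the other pairs the cytosolic gene alone was bound for arginine and threonine, and the mitochondrial gene alone for tryptophan. Some enzymes for the same amino acid fall outside these pairs by name. For proline PARS2 was bound and EPRS1 was not, and for glutamate neither EPRS1 nor EARS2 was bound. For phenylalanine cytosolic FARSA and FARSB were bound and mitochondrial FARS2 was not. For arginine RARS1 had 9 fragments and RARS2 no peak within 111547 bp of a start. For threonine TARS1 had 21 fragments and TARS2 none within 44675 bp. For tryptophan WARS1 had none within 29943 bp and WARS2 had 11 fragments. The histidine pair counts 1 peak in both genes, and the valine pair lies in the interval described with the unbound genes.

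No ING5 peak lay anywhere inside the 16 unbound genes. These were CARS1, EPRS1, IARS1, LARS1, SARS1, VARS1 and WARS1 among cytosolic enzymes and CARS2, EARS2, FARS2, IARS2, LARS2, RARS2, SARS2, TARS2 and VARS2 among mitochondrial ones. For 15 of them the nearest summit was more than 10000 bp from any start, and for 11 it lay in the promoter of another protein-coding gene. CARS2, the mitochondrial cysteine enzyme, was the nearest to the limit. A peak of 13 fragments and 5.52-fold had its summit 1440 bp from the nearest CARS2 start and at −8927 bp from the canonical one, in the promoter of ING1, a gene of the same family as ING5. On the inner side of the limit, the farthest best summits were those of AARS1 and WARS2, at 567 and −546 bp.

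Other unbound genes were farther from any peak. The nearest summit was 17925 bp from a start of SARS1, the serine enzyme, 32166 bp from IARS1, the isoleucine enzyme, and 38064 bp from EARS2, the mitochondrial glutamate enzyme. It was 50995 bp from CARS1, 52832 bp from LARS2 and 63340 bp from SARS2. For EPRS1, which joins the glutamate and proline enzymes in 1 protein, FARS2, IARS2, LARS1, RARS2 and the valine enzyme genes VARS1 and VARS2, it was over 100000 bp away.

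VARS1 and VARS2 lie in a stretch of chromosome 6 without any called peak. Between the summits at 28485161 and 33621791, 5.14 Mb, the starts of 185 protein-coding genes had no peak, more than in any other interval between neighbouring peaks. The names of the alignment files in the headers say that multiply mapped reads were removed, and the list holds peaks on alternative sequences. Whether either has a part in this interval was not tested. Without these 2 genes 20 of 34 synthetase genes were bound (58.8%).

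By enzyme class the count was 7 of 18 for class I (38.9%, 17.3 to 64.3), whose catalytic domain is a Rossmann fold, and 13 of 17 for class II (76.5%, 50.1 to 93.2), built on an antiparallel sheet, against 30.9% of all protein-coding genes. The class I share was near that of all genes, which lies inside its interval. The difference between the classes was not tested, and EPRS1, which holds a part of each class, was counted in neither. VARS1 and VARS2 are both of class I. Of the 7 genes listed for the multi-synthetase complex, a cytosolic assembly, MARS1, QARS1, RARS1 and KARS1 were bound and EPRS1, IARS1 and LARS1 were not. Of the scaffold genes of that complex, AIMP2 had 14 fragments at 8.09-fold, at −438 bp from its nearest start, while AIMP1 and EEF1E1 had no promoter peak.

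Other genes around tRNA and amino acid supply were bound at 25 of 43 (58.1%), over 5 lists, against 30.9% of all protein-coding genes. In the amino acid response list 10 of 15 genes had a peak (66.7%), led by SLC3A2, a subunit of amino acid transporters, with 35 fragments and 18.8-fold. SLC7A5, its transporter partner, and TRIB3, a stress-induced pseudokinase, had 20 fragments and 11.3-fold each, and ATF4 itself had 15 and 8.63-fold. ASNS, the asparagine synthetase and a target of ATF4, had no promoter peak, nor had SLC7A11, EIF2AK4, CEBPB or CEBPG. Elongation factors had 6 of 10 (60%), with EEF2 at 21 fragments and EEF1A1 at 20. tRNA maturation and export had 6 of 9 (66.7%), with 10 to 14 fragments, among them XPOT, the tRNA exporter, at 12. The amidation, formylation and selenocysteine list had 2 of 6 (33.3%), a share near that of all genes, MTFMT with 10 fragments and SEPSECS with 11, while GATB, GATC and QRSL1, the subunits of the mitochondrial amidating enzyme, had no peak. SLC3A2, SLC7A5, TRIB3, EEF2 and EEF1A1 ranked within the 1000 most significant peaks, where NARS2 alone stood for the synthetases.

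Bound and unbound synthetase genes had close CpG content at their starts. RefSeq held a promoter for 30 of the 36 genes, 17 bound and 13 unbound. The median ratio of observed to expected CpG was 0.812 in bound genes (range 0.646 to 1.16) and 0.818 in unbound ones (0.163 to 1.21). Across all 15212 protein-coding genes with a sequence, 76.8% of the total and so short of the 80% taken as needed for a full check, the medians were 0.882 in bound and 0.696 in unbound genes. All but WARS1, at 0.163, were at 0.6 or more. Of these 29 synthetase genes 17 were bound (58.6%, 38.9 to 76.5), against 44.1% of all genes with such a ratio, a value inside that interval.

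**Figure D4:**
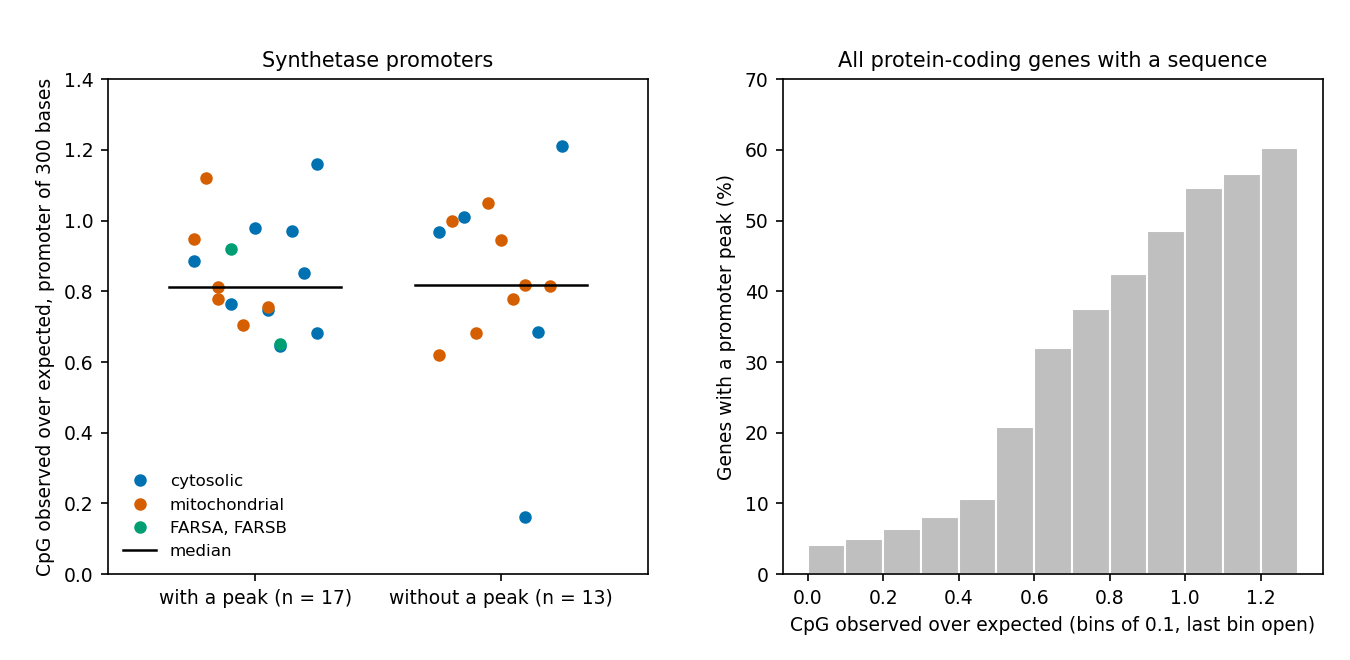
Left, observed over expected CpG in the promoter of 300 bases for synthetase genes with and without an ING5 peak, with the medians 0.812 and 0.818 as lines. Right, percent of all protein-coding genes with a promoter peak by the same ratio, which was 4.13% in the lowest bin and 60.3% in the highest.

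The promoters of cytosolic synthetase genes often held the core of the ATF4 response element, TGATGNAA on either strand. It was found in 7 of 14 cytosolic promoters (50%) and 1 of 14 mitochondrial ones (7.14%), against 2.41% of all 15212 promoters. Each match is given below with 11 bases on both sides, in capitals, on the gene's strand and in GRCh38.p14, because the cytosolic and mitochondrial counts differed most for this motif. The windows lie at chr16:70289675-70289704 for AARS1, chr11:3057407-3057436 for CARS1, chr7:30594834-30594863 for GARS1, chr9:92293692-92293721 for IARS1, chr12:57488053-57488082 for MARS1, chr18:57621804-57621833 for NARS1, chr5:33440956-33440985 for TARS1 and chr12:32756076-32756105 for YARS2. These windows were chosen after the matches were seen.
AARS1: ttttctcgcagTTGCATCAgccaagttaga
CARS1: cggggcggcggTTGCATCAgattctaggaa
GARS1: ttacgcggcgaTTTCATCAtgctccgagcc
IARS1: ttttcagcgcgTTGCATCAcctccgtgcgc
MARS1: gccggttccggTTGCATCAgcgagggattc
NARS1: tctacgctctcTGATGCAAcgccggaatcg
TARS1: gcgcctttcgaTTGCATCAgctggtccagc
YARS2: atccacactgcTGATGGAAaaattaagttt
Of the 8 matches 6 had C at the free base and 6 began within 50 bases of the RefSeq start. None of the 8 lay inside a called peak. Among cytosolic genes the match was present in 5 of 9 bound and 2 of 5 unbound promoters, so unbound CARS1 and IARS1 carried it as well. In the mitochondrial group it was present in 1 of 6 bound and 0 of 8 unbound promoters. Together, 6 of 17 bound and 2 of 13 unbound synthetase promoters held it. Over all protein-coding genes the shares went the other way, with 1.27% of bound and 2.98% of unbound promoters.

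Other motifs were searched on both strands of the same 300 bases. The ETS core CCGGAAG was present in 7 of 14 promoters in each compartment, against 14.8% of all promoters. It was in 8 of 17 bound and 6 of 13 unbound synthetase promoters, against 22.3% and 11.1% over all genes. The YY1 core AAGATGGC was present in 2 of 14 cytosolic and 3 of 14 mitochondrial promoters, against 4.17%. Of synthetase promoters, 5 of 17 bound and 1 of 13 unbound held it, against 6.51% of bound and 3.01% of unbound promoters over all genes. The NRF1 motif was present in 2 and 3 of 14, against 8.92%, and the E-box CACGTG in 1 and 2 of 14, against 8.89%. NRF1 was in 4 of 17 bound and 2 of 13 unbound synthetase promoters, against 14.4% and 6.21% over all genes. For the E-box these were 1 of 17 and 2 of 13, against 10.8% and 7.92%. No difference between bound and unbound promoters was tested. A match describes letters in this window and is not a binding site.

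**Figure D5:**
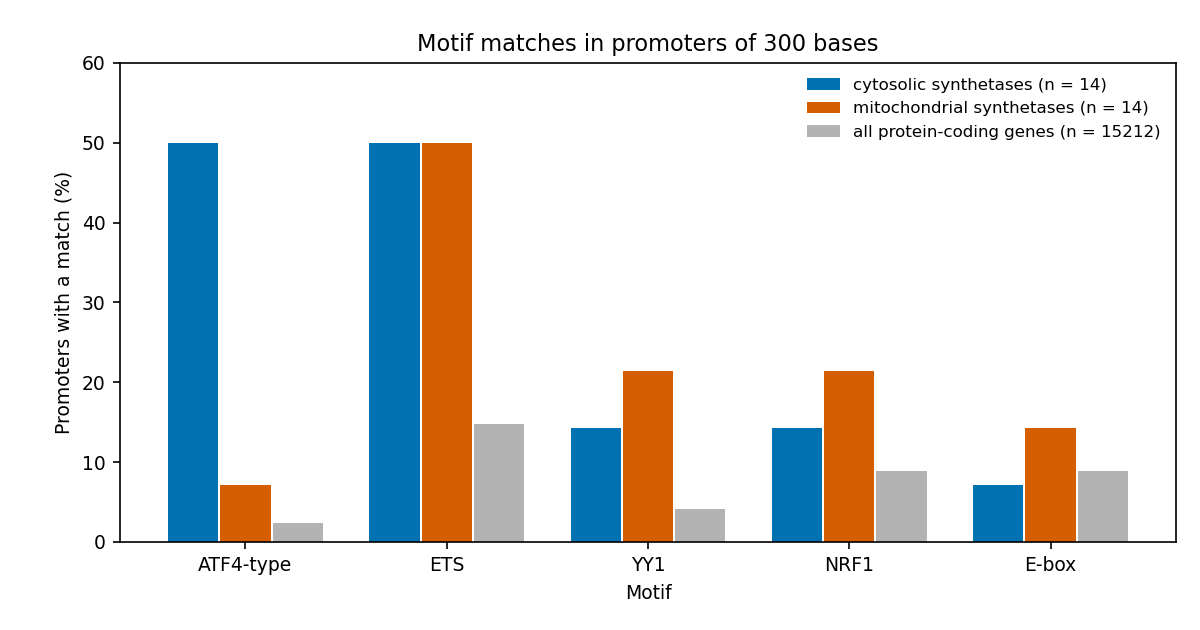
Percent of promoters with at least 1 match to each motif in cytosolic (n = 14) and mitochondrial (n = 14) synthetase genes and in all protein-coding genes (n = 15212). The ATF4-type match is at 50% in cytosolic, 7.14% in mitochondrial and 2.41% in all promoters.

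The library carries the label of a liver line, and none of 10 liver genes, among them ALB, APOA1 and HNF4A, had an ING5 promoter peak (0 of 10, exact binomial upper bound 30.8%), against 30.9% of all protein-coding genes. The difference from all genes was not tested. A promoter peak is no measure of expression, so the count says nothing of the level of these genes.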

How the data were processed

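ING5 ChIP-seq of HepG2 cells gave 1 deposited peak list of 8608 peaks. Per the file headers, MACS2 2.1.1.20160309 called the peaks on fragments against the input, with 1e-05 as p cutoff, on alignments named as freed of duplicates and multiply mapped reads. The submitters' processing notes name fastp 0.19.6, deepTools and Bowtie2, and GRCh37 as build, while positions in the list match GRCh38 starts and are given as such. The deposited pileup is a coverage signal in fragments, not scaled. The deposited fold enrichment is the ratio of pileup to background, each with 1 added, from which the local background was recovered. The deposited −log10 p ranked the peaks; the deposited −log10 q was not used, as the headers say that it was not calculated. A background within 0.001 of the lowest was taken as genome-wide.

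GRCh38 starts came from the original exon positions in GENCODE 44 (lifted to GRCh37); no coordinate was converted. Offsets are from the nearest start of the gene, or from its canonical transcript where said. The best peak is the most significant. Promoters came from RefSeq (GRCh38.p14), the entry nearest to the canonical start. Intervals are exact binomial for shares and exact Poisson for pileups, at 95%. The assignment of summits to genes was tested on simulated data. Computations used Python 3.11.15, pandas 2.3.3, numpy 2.4.6 and scipy 1.17.1.

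Genes with full values were the 5 highest by pileup per compartment, FARSA, FARSB, TARS3, genes sharing a peak, those whose nearest summit lay 500 to 3000 bp from a start and amino acid pairs of which 1 was bound; other genes with values were chosen after these were seen. The members and lists were chosen with earlier results of these data known. Alternatives changed the window, the starts, the peaks kept or the genes counted. The 19 peaks on other sequences were not used.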

Additional observations from a re-analysis of the deposited data

How the results depend on the processing

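By the rule above 20 of 36 synthetase genes were bound (55.6%), against 30.9% of all genes. A window of 3000 bp or any overlap gave 21 (58.3%), against 32.9% and 31.4% of all genes. Canonical transcripts alone gave 20 (55.6%), against 27.9%. Fewer were bound with a window of 200 bp, which keeps all peaks (8 genes, 22.2%, against 13.5% of all genes). Settings that keep fewer peaks also gave lower counts. The 4294 more significant peaks gave 12 (33.3%, against 19.3%) and the 4294 of higher fold 10 (27.8%, against 19.4%). The 1000 most significant gave 1 (2.78%, against 4.79%) and peaks at the genome-wide background 8 (22.2%, against 19.9%). In the same order the cytosolic count of 10 became 5, 6, 4, 0 and 3, and the mitochondrial count of 7 became 3, 4, 4, 1 and 3. As shares these were 29.4, 35.3, 23.5, 0 and 17.6% of cytosolic and 18.8, 25, 25, 6.25 and 18.8% of mitochondrial genes. At the genome-wide background, with 3 genes bound in each group, both shares were near the 19.9% of all genes. Without genes that share a peak, 5 cytosolic genes were counted (29.4%), against 21.2% of all genes on the same rule. The difference in median pileup, cytosolic minus mitochondrial, of −2 became 3 with 200 bp; the cause was not tested. With 1000 peaks no cytosolic gene was left to give it. All 12 best summits of synthetase genes lay downstream (100%) among the more significant peaks, against 85.0% with all peaks. The share of all bound genes under that setting was not computed. With 200 bp the related lists had 13 of 43 genes bound (30.2%), class I 3 (16.7%) and class II 5 (29.4%), against 13.5% of all genes. With the more significant peaks class I had 4 (22.2%) and class II 8 (47.1%), against 19.3% of all genes. The CpG difference, bound minus unbound median, of −0.006 became −0.0645 with 3000 bp and turned to 0.036 with the more significant peaks. These changes were smaller than the spread of the ratio over the genes. With GC percent in place of CpG the difference was −2, judged by direction alone. Leaving out VARS1 and VARS2 was chosen after seeing the data. A pileup of 9 fragments has an interval of 4.12 to 17.1, so depth limits any ranking of these genes. No paired analysis was possible because each group has 1 library and the result comes from no test.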
